A study of Homo sapiens with 7 samples.

Results

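The regions described are those that HNF6, GATA6 and NKX6.1 occupied around 6 genes of the liver secretory programme, ALB, AFP, GC, TTR, APOA1 and SERPINA1, in human embryonic stem cells on their way to pancreas in culture. A region was taken where its midpoint lay within 50 kb of the gene on hg19, which gave 24 regions of the 86081 in the 4 deposited peak lists. They comprised 20 of 64919 HNF6 regions of day 10, 2 of 6285 listed GATA6 regions of day 10, 2 of 14627 NKX6.1 regions of day 13 and 0 of 250 HNF6 regions of day 5. ALB and AFP lie 14.8 kb apart and shared all 4 of their regions, which were counted once in these totals. The study profiled chromatin occupancy by immunoprecipitation and sequencing in CyT49, an established human embryonic stem cell line. There was 1 library each for HNF6 at the gut tube endoderm stage (day 5), for HNF6 and for GATA6 at the stage labelled PE (day 10), and for NKX6.1 at the stage labelled PP (day 13). The protocol calls the NKX6.1-positive cells of day 10 pancreatic progenitors. Without replicates, differences cannot be set against replicate spread, and p-values were not computed. Another 3 samples are inputs and were not analysed here. Expression was not measured in these files, so neither the cell stage nor the activity of any of the 6 genes was checked.

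The liver and the ventral pancreas arise from neighbouring foregut endoderm, and several transcription factors serve both organs. HNF6 is the product of ONECUT1, a homeodomain factor that acts in hepatocytes, bile ducts and pancreas. GATA6 is a zinc finger factor of early endoderm that is needed for the human pancreas, and NKX6.1, a homeodomain factor as well, marks the pancreatic progenitor and the mature beta cell. The 6 genes encode abundant plasma proteins of the hepatocyte. Fetal liver and yolk sac also make AFP, and pancreatic islets are known to express TTR and SERPINA1.

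The starts of ALB, AFP and SERPINA1 had no region over them in any of the 4 lists, and their promoters are shown as the sequence before starts with no region. RefSeq promoter entries (GRCh38.p14) were found for these 3 genes, with 2 starts for SERPINA1 that lie 2033 bp apart. The GRCh38.p14 genes differ in length from the hg19 intervals used for distances by -38 bp (ALB), 58 bp (AFP) and 57 bp (SERPINA1; hg19 minus GRCh38.p14), so these starts need not be the hg19 starts to the base. No promoter entry was found for GC, TTR or APOA1, so their promoters could not be shown. The starts of GC and APOA1 had no region over them either. Each sequence holds the 250 bases before the start, written 5′ to 3′ on the strand of the gene, and capitals mark matches to the motifs searched. ALB is on the plus strand at chr4:73404037-73404286, AFP on the plus strand at chr4:73435971-73436220, and SERPINA1 on the minus strand at chr14:94390636-94390885 (outer start) and chr14:94388603-94388852 (inner start). In these GRCh38.p14 promoters the sequences read as follows.
ALB: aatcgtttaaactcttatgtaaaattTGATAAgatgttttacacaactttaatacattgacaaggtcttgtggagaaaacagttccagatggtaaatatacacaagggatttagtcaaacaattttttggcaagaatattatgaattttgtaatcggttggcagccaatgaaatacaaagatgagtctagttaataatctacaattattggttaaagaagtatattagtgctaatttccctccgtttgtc
AFP: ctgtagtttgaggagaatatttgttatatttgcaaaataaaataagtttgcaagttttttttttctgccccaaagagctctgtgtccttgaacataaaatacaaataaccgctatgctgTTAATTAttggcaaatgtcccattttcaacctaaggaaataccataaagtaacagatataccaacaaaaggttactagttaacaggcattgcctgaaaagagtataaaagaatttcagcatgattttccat
SERPINA1 outer: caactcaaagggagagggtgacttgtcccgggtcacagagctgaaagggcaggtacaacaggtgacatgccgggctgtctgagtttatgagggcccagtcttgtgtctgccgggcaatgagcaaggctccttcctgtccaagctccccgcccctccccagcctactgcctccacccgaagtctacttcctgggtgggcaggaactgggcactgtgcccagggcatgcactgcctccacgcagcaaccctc
SERPINA1 inner: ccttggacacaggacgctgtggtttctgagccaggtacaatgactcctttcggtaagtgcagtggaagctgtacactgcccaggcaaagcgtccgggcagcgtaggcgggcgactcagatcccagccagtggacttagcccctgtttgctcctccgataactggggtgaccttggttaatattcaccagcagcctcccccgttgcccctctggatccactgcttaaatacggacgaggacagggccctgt
The letters ATCGAT and ATCAAT were searched for HNF6, AGATAA and TGATAA for GATA factors, and TTAATT and TAATTA for NKX6.1, each on both strands. The ALB promoter held 1 GATA match, TGATAA, which begins 224 bases before the start. The AFP promoter held 2 overlapping NKX6.1 matches, TTAATT at 131 and TAATTA at 130 bases before the start. No HNF6 match was in any of the 4 windows, and the SERPINA1 windows held no match to any of these letters. Among all 35116 promoter entries of this length, 6.19% held an HNF6 match, 14.6% a GATA match and 11.1% an NKX6.1 match. A match describes the letters alone. No entry was read at the hg19 positions of the occupied regions.

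On day 10 HNF6 had regions at all 6 loci, from 2 at APOA1 to 7 at GC. Windows of the median locus length tiled along the chromosomes held at least 1 HNF6 region of day 10 in 77.8% of cases, so a region at every locus is close to what most of the genome showed. The 7 regions of GC stood in a window of 163.8 kb (4.27 per 100 kb). TTR had 5 regions in 107.3 kb, the densest of the 6 at 4.66 per 100 kb. SERPINA1 followed with 3 regions (2.63 per 100 kb), and ALB and AFP with the same 3 (2.56 and 2.5 per 100 kb). APOA1 had the lowest density, with 2 regions in 101.9 kb (1.96 per 100 kb). GC and TTR were above their mean, since windows of their length held a mean of 3.48 and 2.28 HNF6 regions, and 14.4% and 14.5% of those windows held at least as many as the locus. At the other loci the count was near the mean: 41.6% of windows held at least as many as ALB, 42.4% as AFP, 40.1% as SERPINA1 and 53.9% as APOA1. Without the windows that were empty in all 4 lists, these shares were 16.7% for GC, 18.2% for TTR and 49.4 to 68.4% for the others. No locus thus had a count that fewer than 14.4% of windows of its length reached.

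**Figure D1:**
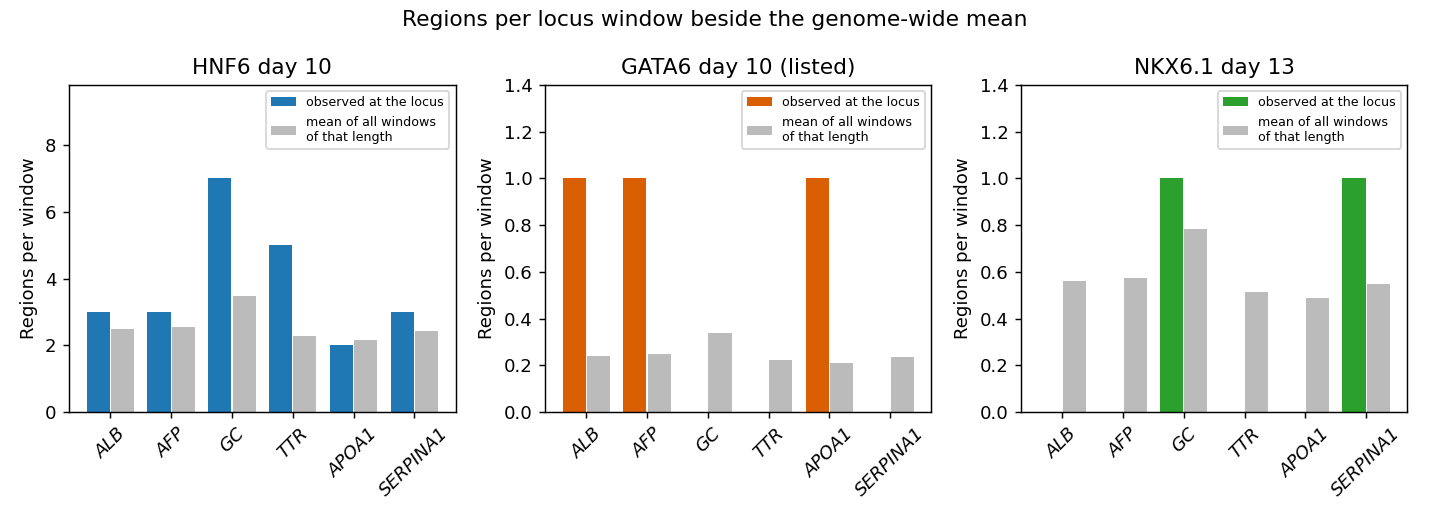
Regions per locus window (coloured bars) beside the mean of all non-overlapping windows of the same length on the chromosomes (grey bars), for the 3 lists with a region at any of the 6 loci. HNF6 stood above its mean most clearly at GC (7 against 3.48) and TTR (5 against 2.28), and just under it at APOA1 (2 against 2.17).

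By rank, the HNF6 regions were spread over most of their list. Scores are the authors' own value per peak and were used only to rank regions within a list. Of the 20 regions, 12 lay above the median score of the list, as did 49.8% of all HNF6 regions of day 10. Above score percentile 90 lay 2 of the 20 (10% of all regions), and 3 lay at or below percentile 25 (24.5% of all regions). The median score percentile of the 20 was 62.3, with a range of 6.5 to 98.5, and the median score was 110, against 79 for the whole list. Their widths, 179 to 470 bp with a median of 264.5 bp, were close to the list median of 261 bp. Each of the 20 came from a single row of the list, whereas 2.11% of all HNF6 regions of day 10 had several rows with the same start and end. By the nearest of the 6 genes, 8 regions were upstream, 4 within the gene and 8 downstream. Measured from the hg19 gene starts, the midpoint lay within 1 kb for 1 region, within 5 kb for 3 and within 20 kb for 7. The region within 1 kb is the one at TTR, and those within 5 kb include a SERPINA1 region at 4.8 kb. With other annotated starts these counts could differ. Position shares over all regions of the list were not computed, so these counts describe the 6 loci alone.

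**Figure D2:**
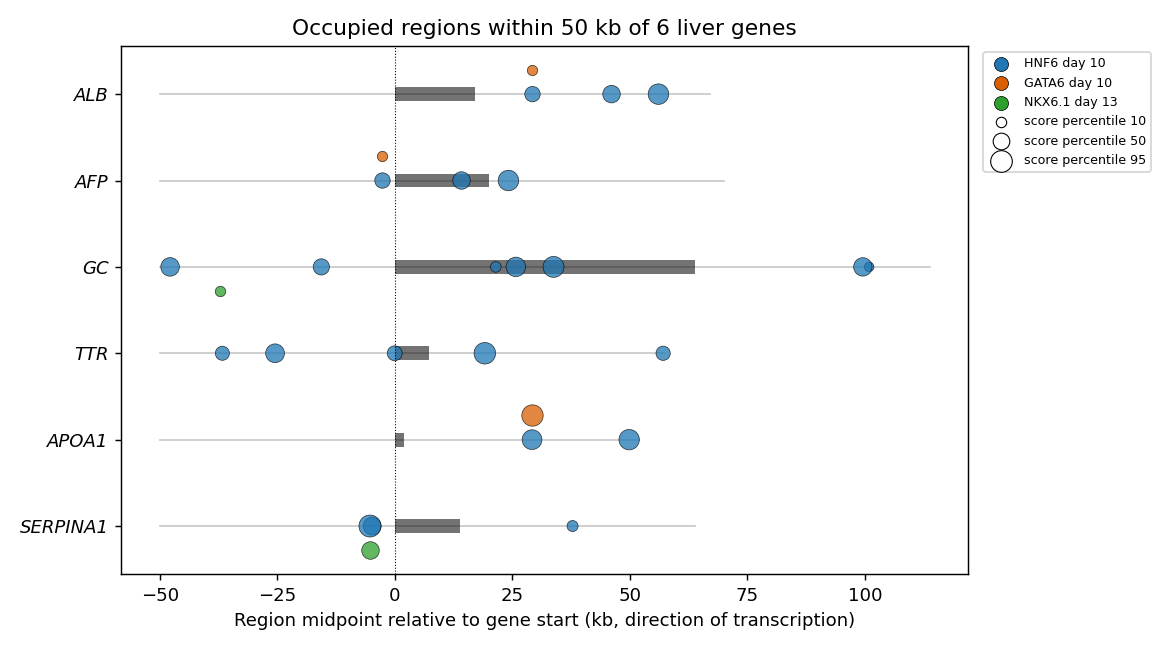
Midpoints of all regions at each locus by distance from the gene start, in kb along the direction of transcription, with the gene as a dark bar and the 50 kb on either side as a grey line. Point area grows with the score percentile within the region's own list. ALB and AFP show the same regions from 2 starts. TTR is the only gene with a region at its hg19 start, and both APOA1 regions of HNF6 lie downstream.

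ALB encodes albumin, the main plasma protein of adult liver, and AFP encodes alpha-fetoprotein, its fetal relative. The same 3 HNF6 regions belonged to both genes, and they lay on the AFP side. None lay upstream of ALB or within it. The first, chr4:74299163-74299373, had a score of 66 (percentile 40.7) and lay 2.61 kb before the AFP start and 12.14 kb past the end of ALB. The next, chr4:74315935-74316229 (score 95, percentile 56.9), lay within AFP, 14.2 kb after its start. The strongest, chr4:74325878-74326251 (score 254, percentile 83.7), lay 4.17 kb past the end of AFP. The score thus increased in the direction of transcription over these 3 regions, and the region closest to a start was the weakest. The start of ALB was the farthest of the 6 from an HNF6 midpoint, at 29.3 kb, followed closely by APOA1 at 29.2 kb.

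GATA6 had its weaker region of the 6 loci in the same place between ALB and AFP. The listed GATA6 region chr4:74298954-74299185 had a score of 35 (percentile 9.9) and lay 2.81 kb before the AFP start. It overlapped the HNF6 region there by 23 bp, or 10.9% of the shorter region, and the midpoints were 198.5 bp apart. The overlap rests on the edges of 2 weak regions, and it was lost when 50% of the shorter region had to be covered. NKX6.1 had no region in the windows of ALB and AFP, and its nearest region was 132.6 kb from AFP and 167.4 kb from ALB.

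GC encodes the vitamin D binding protein, another member of the albumin family on the same chromosome. Its 3 intragenic HNF6 regions were spread over a stretch in the middle of the gene. They were chr4:72637299-72637613 (score 335, percentile 88.1), chr4:72645339-72645621 (score 162, percentile 74.2) and chr4:72649619-72649877 (score 32, percentile 11.5), at 33.78, 25.76 and 21.49 kb after the start. Here the strongest region was the one farthest into the gene. Upstream lay chr4:72686750-72686961 (score 74, percentile 46.6), 15.62 kb before the start, and chr4:72718910-72719152 (score 120, percentile 65.9), 47.79 kb before it. The pair downstream of the gene, chr4:72571515-72571814 (score 118, percentile 64.6) and chr4:72570224-72570455 (score 27, percentile 6.5), lay 1.32 kb apart by midpoint. The GC locus therefore held both the most HNF6 regions and the weakest of all 20. In RefSeq gene order (GRCh38.p14) NPFFR2 is the neighbour upstream of GC and SLC4A4 the one downstream. To which gene each region relates was not tested. No listed GATA6 region lay in the window, and the nearest was 191.8 kb away. NKX6.1 had 1 weak region, chr4:72708389-72708464 (score 22, percentile 10.4), 37.19 kb before the start. It touched no HNF6 region, the nearest of which was 10.6 kb away.

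TTR encodes transthyretin, the carrier of thyroid hormone and of retinol with its binding protein. It was the only 1 of the 6 genes with a region over the start of its hg19 interval. The HNF6 region chr18:29171627-29171805 covered the start at 29171730, with its midpoint 14 bp before it. It was a weak and narrow region, with a score of 59 (percentile 37.3) and a width of 179 bp (width percentile 9.2). The hg19 interval used for TTR is 313 bp longer than the gene in GRCh38.p14, and how far its start differs between the annotations was not analysed here. The region reaches 75 bp past the hg19 start, so a start placed further downstream than that would not be covered. The strongest region at TTR, chr18:29190699-29191088, lay 11.91 kb past the end of the gene, with a score of 601 (percentile 94.2). The other 3 were chr18:29134959-29135157 (score 54), chr18:29146137-29146406 (score 130) and chr18:29228717-29228925 (score 55), at percentiles 31.4, 67.8 and 32.5. In 3 of the 5 regions, the one over the start included, the score was below the median of the list. In RefSeq gene order (GRCh38.p14) DSG2 is the neighbour upstream of TTR and B4GALT6 the one downstream. To which gene each region relates was not tested. Neither GATA6 nor NKX6.1 had a listed region in the window. The nearest NKX6.1 region, chr18:29118899-29118997 (score 68), lay just outside the limit, 52.78 kb before the gene. It stood inside an HNF6 region, chr18:29118842-29119255 (score 649, percentile 94.8), which was stronger than any HNF6 region inside the TTR window.

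APOA1 encodes the main protein of high-density lipoprotein. It had no region over the gene, upstream of it or within 25 kb of it in any list. Both of its HNF6 regions lay downstream, chr11:116679015-116679268 (score 178, percentile 76.6) at 27.33 kb past the gene and chr11:116658284-116658668 (score 239, percentile 82.7) at 47.99 kb. On that side the RefSeq table (GRCh38.p14, used for gene order alone) places APOC3, APOA4 and APOA5, further apolipoprotein genes of liver and intestine. Which of these genes lies nearest to each region was not analysed here, because no hg19 annotation was used. The first of the 2 regions carried the strongest GATA6 region of the 6 loci. This region, chr11:116678966-116679316, had a score of 611 (percentile 92.4), covered the HNF6 region whole, and had its midpoint 0.5 bp from that of HNF6. Within the partial GATA6 list, the 2 regions at these loci thus lay far apart in rank, at percentile 92.4 here and 9.9 between ALB and AFP.

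SERPINA1 encodes alpha-1-antitrypsin, a plasma inhibitor of neutrophil elastase. It had the strongest of the 20 HNF6 regions, chr14:94862077-94862546, with a score of 1290 (percentile 98.5, rank 975 of the list), a width of 470 bp, and its midpoint 5.28 kb before the start. A second HNF6 region, chr14:94861659-94861999 (score 102, percentile 60.1), was separated from it by 77 bp, the smallest gap between any 2 of the 20. The third, chr14:94819117-94819303 (score 35, percentile 13.5), lay 23.87 kb past the end of the gene. The start used for these distances is the upstream end of the hg19 interval. In GRCh38.p14 the inner of the 2 SERPINA1 starts lies 2033 bp further into the gene, so upstream distances from it would be longer. NKX6.1 had a region inside the strongest HNF6 region. This NKX6.1 region, chr14:94862253-94862330, was 78 bp wide, had a score of 62 (percentile 57.5), and had its midpoint 20 bp from that of HNF6. The HNF6 region of day 10 with the highest score at the 6 loci was thus also the only one with NKX6.1 on day 13. No listed GATA6 region lay in the window, and the nearest was 182 kb from the gene. On the upstream side of SERPINA1 the RefSeq table places SERPINA11, SERPINA9 and SERPINA12, and on the downstream side SERPINA6 and SERPINA10, all of the same serpin family.

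**Figure D3:**
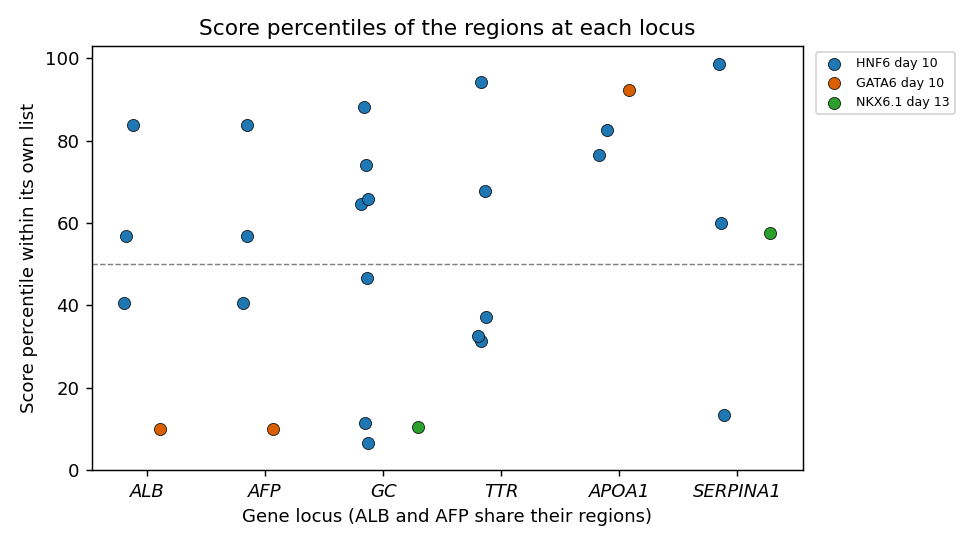
Score percentile of each region within its own list, by locus and list. The dashed line marks percentile 50. Single HNF6 regions at SERPINA1 (98.5) and TTR (94.2) lie above percentile 90, and the other HNF6 regions of both loci lie at 13.5 to 67.8.

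The 24 regions formed 21 separate places, of which 17 held HNF6 alone, 1 held NKX6.1 alone and 3 held a pair of lists. Places with GATA6 alone were hardly possible, since every listed GATA6 region overlaps an HNF6 region of day 10. No place held all 3 factors. The shares of these kinds of place over the whole lists were not computed, so the counts are not read as particular to these loci. The 3 shared places were the ones between ALB and AFP, at APOA1 and before SERPINA1. Listed GATA6 regions were found at 2 of the 20 HNF6 regions, or 10% (Wilson 95% interval 2.79 to 30.1), while 9.66% of all HNF6 regions of day 10 overlapped one. NKX6.1 was found at 1 of the 20, or 5% (0.888 to 23.6), while the share over the list was 3.2%. None of the 20 overlapped an HNF6 region of day 5, where the share over the list was 0.347% and a count of 0 allows up to 15%. No day 5 region lay in any window, so this count of 0 adds nothing to the empty windows. The shares with GATA6 and NKX6.1 are near those of the whole list, within intervals that cover counting error only. From the other lists, 1 of the 2 NKX6.1 regions overlapped HNF6 (14.3% of all NKX6.1 regions), and both GATA6 regions did. For GATA6 that share is 100% over the whole list, so it was not taken to measure anything at these loci. Neither GATA6 region overlapped NKX6.1, which was found at 11.8% of all listed GATA6 regions. Neither NKX6.1 region overlapped listed GATA6, which was found at 5.18% of all NKX6.1 regions. No locus held regions of both lists, so neither result adds to the counts per locus.

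**Figure D4:**
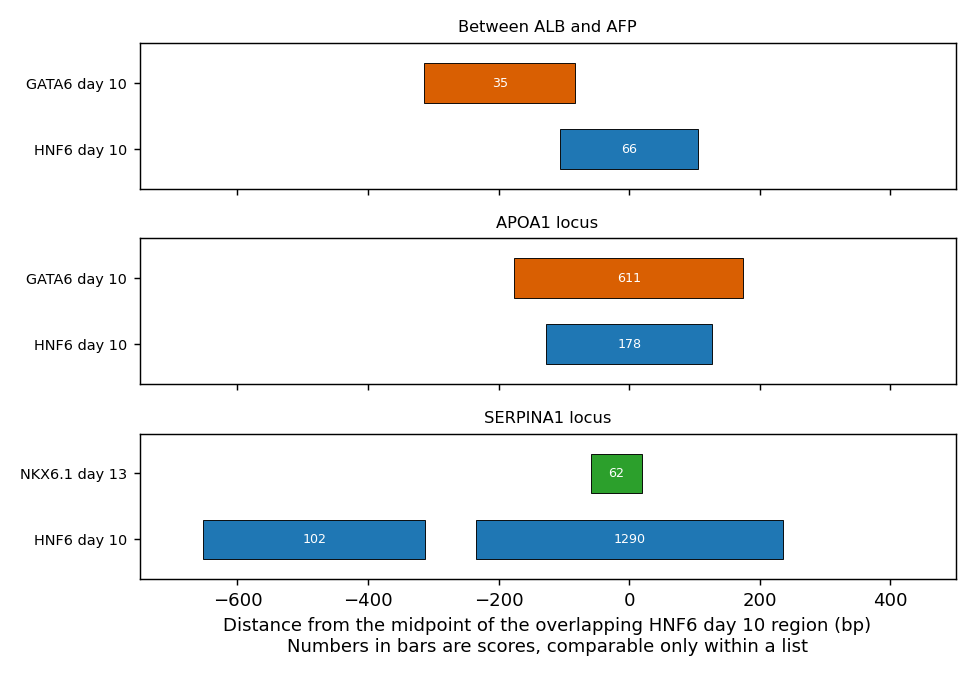
The 3 places where regions of 2 lists overlapped, drawn by distance in bp from the midpoint of the HNF6 region along rising hg19 position, with the score of each region in its bar. GATA6 and HNF6 touched by 23 bp between ALB and AFP, GATA6 covered the HNF6 region at APOA1, and NKX6.1 lay inside the HNF6 region with a score of 1290 at SERPINA1.

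Several combinations of locus and list were empty. HNF6 on day 5 was empty at all 6 loci. Among windows of the median locus length 0.902% held an HNF6 region of day 5, so an empty locus was the state of nearly all windows in that list of 250 regions. The nearest day 5 region was 240.1 kb from APOA1 and 582.5 kb from AFP, and at TTR it was 5501 kb away. Listed GATA6 was empty at GC, TTR and SERPINA1, or 3 of 5 separate windows with ALB and AFP taken as 1. Of all windows of the median locus length, 80.8% were empty of listed GATA6 and 19.2% held a region. NKX6.1 was empty at ALB with AFP, TTR and APOA1, likewise 3 of 5 windows. Of all such windows, 61.2% were empty of NKX6.1 and 38.8% held a region. Since the 4 lists differ in length and read depth is unknown from them, an empty locus says that no peak was listed there and not that the factor was absent.

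The empty GATA6 loci carry a further limit, because the GATA6 list was partial, with 32.4% of its 19404 peak numbers. Every listed GATA6 region overlaps an HNF6 region of day 10, and why the other peaks were left out is not known. Peak numbers rise with position along each chromosome, so the listed peaks on either side of a locus bound how many unlisted peaks could lie there. Around ALB and AFP, 3 unlisted numbers fell in the 642 kb between the listed peaks that flank both windows. The number was 6 over 1344 kb around GC and 6 over 749 kb around TTR. Around SERPINA1 it was 7 over 2697 kb, and around APOA1 17 over 2717 kb. These unlisted peaks were not analysed here, and between 0 and these numbers may lie within a window, so GC, TTR and SERPINA1 cannot be called free of GATA6 peaks.

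The limit of 50 kb separated a few regions narrowly. Just inside it were the HNF6 regions at 49.83 kb from TTR (score 55), 47.99 kb from APOA1 (score 239) and 47.79 kb from GC (score 120). Outside it, the next HNF6 region was close to the limit only at TTR, at 52.68 kb (score 649). Farther out were those at 57.92 kb from AFP (score 62), 60.41 kb from ALB (score 57) and 62.12 kb from SERPINA1 (score 41). The next from APOA1 lay at 65.55 kb (score 71) and from GC at 69.72 kb (score 49). Of these 6 outer regions, the one at TTR was the only one above the median score of its list.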

How the data were processed

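Each sample was grouped by its title, and the day 5 title gives its factor only as HNF, with HNF6 as the antibody characteristic. Per the submitters' processing notes, the tools were MACS2 2.1.1.20160309 and Bowtie2 2.3.4.1 and the build was hg19, with no roles or settings. For each of the 4 immunoprecipitated libraries the authors deposited a peak list with a score per peak. The unit of this score and the use of the inputs are not given in the sources. The extraction protocol names an NKX6.1 antibody for every sample, whereas the antibody characteristic matches each list, per the labels. Rows with the same coordinates were joined into 1 region that kept the highest score, and midpoints stood in for summits. Percentiles give the percent of a list at or below a score.

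Overlap was counted from 1 bp (Python 3.11.15, numpy 2.4.6, pandas 2.3.3), and counts equalled those of bedtools 2.31.1. Background windows were tiled without overlap up to the farthest listed position of each chromosome, gaps and closed chromatin included. Wilson intervals came from statsmodels 0.14.6. The code was tested on simulated data, where 700 of 700 planted overlaps were found. Gene strands were taken from textbook knowledge, and those of ALB, AFP and SERPINA1 were checked in the RefSeq table. Positions are 1-based. The named regions are all members, since each is accounted for. Members and lists were chosen with earlier results of these data known. Other liver genes fixed as context were used only as neighbours in gene order, because no hg19 annotation was used here.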

Additional observations from a re-analysis of the deposited data

How the results depend on the processing

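The alternatives were the distance from the gene, placing regions by any base, every row counted, only regions scoring above their list's median, and stricter overlap. Of 40 values, 28 stayed within 1.5 times the reported count. These 28 include all values for day 5, which were 0 against 0. They also include the counts of every row, which could not change because each member came from a single row. HNF6 regions of day 10 (20 as reported) numbered 12 within 25 kb, 42 within 100 kb and 12 above the median score. NKX6.1 regions (2) numbered 1, 5 and 1 under the same settings, and listed GATA6 regions (2) numbered 1 within 25 kb and 1 above the median score. These moves follow from the size of the window or the list. HNF6 regions with listed GATA6 (2) numbered 1 within 25 kb, 1 above the median score and 1 with 50% of the shorter region covered, where the pair between ALB and AFP was lost. HNF6 regions with NKX6.1 (1) numbered 2 within 100 kb. HNF6 of day 5 stayed at 0 in all settings run. Loci with a region numbered 6 in all settings but 25 kb, where APOA1 left 5. No paired analysis was possible because each group has 1 library. Depth is unknown, so weak regions missing from a list cannot be told from unoccupied sites.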

Other observations

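In wider spans, which include the windows, the 6 loci differed in the number of HNF6 regions. No genome-wide mean was computed for these spans, and those of ALB and AFP largely coincide. Within 500 kb of the gene, HNF6 had 59 regions at GC, 36 at TTR, 35 at AFP, 31 at ALB, 18 at APOA1 and 16 at SERPINA1 on day 10. SERPINA1, with the strongest single region, had the fewest within 500 kb, and APOA1 the fewest within 200 kb. Within 200 kb the numbers were 31 at GC, 13 at TTR, 13 at AFP, 12 at ALB, 9 at SERPINA1 and 8 at APOA1. NKX6.1 had 8 regions within 500 kb of GC, 7 of SERPINA1, 6 of APOA1, 5 of TTR, 4 of ALB and 3 of AFP. Listed GATA6 regions numbered 1 within 500 kb of APOA1, the strong one described above, and 2 to 4 at the other genes. HNF6 of day 5 had 2 regions within 500 kb of APOA1 and 0 of the other 5 genes.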
